A study of Arabidopsis thaliana with 12 samples.

Results

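Roots of the Arabidopsis mutant sahy1-1 were compared with roots of the wild-type line Col-7, using 3 arrays of each, 6 of the 12 arrays in the series. The members were chosen by their titles alone, and every probe set other than the 64 controls of the chip was eligible. The mutant carries a T-DNA in the third exon of SAHY1 (At2g01640), which left no transcript detectable by RT-PCR in the study and was called a knockout there, and the labels write sahy1 without an allele number. Col-7 is a Columbia wild type, which the labels pair with the SAHY1 overexpression line 4-1 (SAHY1OE, a single line), whereas the mutant is paired there with Col-0. Differences between sahy1-1 and Col-7 can therefore come from the insertion or from the lines, and these cannot be told apart within the 6 arrays. For that reason values of the 3 Col-0 and 3 SAHY1OE arrays are printed beside some of the results. The other results give sahy1-1 and Col-7 alone. All plants were 12 days old and grown on the same basal medium, and the study describes its replicates as biological triplicates.

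SAHY1 is a nucleolar protein that takes part in the processing of precursor rRNA, the step in which the long primary rRNA transcript is cut into the rRNAs of the ribosomal subunits. Ribosome assembly draws on rRNA, ribosomal proteins and a large set of assembly factors, and many plants with defects in it have small, slow-growing roots. Roots combine several tissues, among them the epidermis with its root hairs, the vascular strand with phloem that unloads sugar, and the meristem at the tip. In such bulk samples fewer cells of a type and less RNA per cell cannot be told apart.

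Values are MAS5 signals, a linear brightness per probe set that was scaled to a trimmed mean of 500 on each array. A probe set was kept when it reached the 40th percentile of its array, a signal a little above 100, on all 3 arrays of at least 1 of the 4 groups, which left 13834. Log2 fold changes are sahy1-1 minus Col-7 on log2 signals, and p-values are those of limma, fitted to all 12 arrays and adjusted by the Benjamini-Hochberg method over the 13834 probe sets. Calls required both an adjusted p below 0.05 and more than a 2-fold difference. Since no detection calls were used, the size of a fold from a signal near background is uncertain, and for such genes the value after adding 32 to each signal is also given.

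The knocked-out gene was low in the mutant. SAHY1 had signals of 65.5, 7.01 and 143 on the 3 sahy1-1 arrays and of 284, 259 and 252 on the Col-7 arrays. The groups did not overlap, but the mutant arrays spread widely. The mean was 71.8 ± 68.2 (SD, n = 3) against 265 ± 16.4 (SD, n = 3), a log2 fold change of -2.72 (standard error, SE, 0.72, limma's adjusted p = 0.0261). The exact two-sided permutation p was 0.1, the smallest that 3 against 3 arrays can give. The size rests in part on sahy1-1 replicate 2, without which the value was -1.45 on the log2 scale (limma's adjusted p = 0.00664), and without replicate 3 it was -3.63. The call was lost without any 1 of the Col-7 arrays, with an adjusted p of 0.0579, 0.0708 and 0.0615 without replicates 1, 2 and 3, and the position of the probes relative to the T-DNA was not determined.

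Between the mutant and Col-7, 327 probe sets were called, of which 186 were higher and 141 were lower in sahy1-1. They were 2.36% of the 13834 tested, 1.34% for the higher and 1.02% for the lower, and 12.9% passed the adjusted p alone. By the same rule 4.13% were called between the mutant and Col-0 and 1.81% between Col-7 and Col-0. Of the 186 higher and 141 lower calls, 14 and 7 were also called between Col-7 and Col-0, a comparison that shares the Col-7 arrays. The median log2 fold change of all probe sets was 0.01, and its quartiles were -0.20 and 0.21. Of the higher calls, 27 exceeded 4-fold and 11 exceeded 8-fold, and of the lower calls 16 and 3 did. In 161 of the 186 higher calls all 3 mutant arrays lay above all 9 other arrays of the series, and in 128 of the 141 lower calls they lay below them, against 7.36% and 7.11% of all probe sets. The calls were chosen on the same mutant arrays, and 186 and 140 of them were already apart from Col-7. These counts are therefore no independent support for the calls. A probe set high in the mutant alone could enter only through the mutant arrays, which was the case for 64 of the higher calls, and 5 of the lower calls entered through Col-7 alone. The platform table pairs 95 of the higher and 75 of the lower calls with a single gene. The others pair with several genes (12 probe sets in all, 8 higher and 4 lower) or with none (83 higher and 62 lower).

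**Figure D1:**
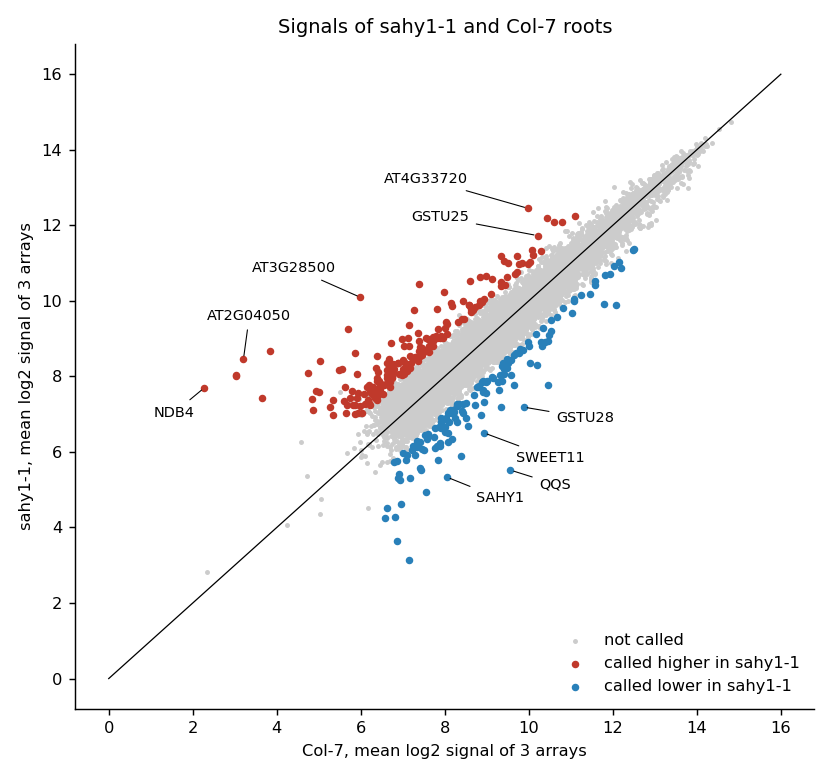
Mean log2 signal of the 3 Col-7 arrays (horizontal axis) and of the 3 sahy1-1 arrays (vertical axis) for the 13834 probe sets kept, with a line at equal signals, 186 probe sets called higher in the mutant in red and 141 called lower in blue. The called probe sets on the left, such as NDB4 and AT2G04050, had Col-7 signals near background, while AT4G33720 and GSTU25 rose from signals above 800.

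Among the genes with the largest rises were genes of the ribosome and of the mitochondrion that were close to background in Col-7. AT3G28500, a gene of the 60S acidic ribosomal protein family of the large subunit's stalk, had signals of 1101, 1189 and 993 in the mutant and of 45.0, 93.9 and 61.2 in Col-7. Every mutant array was at least 993, and the highest of the other 9 arrays was a Col-0 array at 155. The log2 fold change was 4.10 (SE 0.32, limma's adjusted p = 4.99e-06), and 3.54 after adding 32. NDB4, an external NADH dehydrogenase of the inner mitochondrial membrane that passes electrons on without pumping protons, read 217, 190 and 216 in the mutant and 4.80, 3.08 and 7.67 in Col-7. None of the 9 arrays outside the mutant exceeded 9.61, so the gene was near background in each of the other groups. Its log2 fold change was 5.42 (SE 0.37, limma's adjusted p = 1.45e-06), and 2.69 after adding 32.

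The same contrast was seen for genes without a name in the tables used. AT2G04050 read 314, 344 and 395 in the mutant and 4.41, 29.5 and 6.04 in Col-7, and AT2G03130 read 324, 200 and 278 against 6.0, 13.3 and 6.73. In both, the groups lay far apart, and the log2 fold changes were 5.24 and 5.01 (limma's adjusted p = 0.000745 and 0.000111), or 3.12 and 2.86 after adding 32. Without Col-7 replicate 2 the value of AT2G04050 was 6.08. AT3G24780 read 238, 248 and 290 against 6.79, 8.73 and 9.36. In that gene Col-7 was itself low, since Col-0 read 40.3, 58.8 and 65.8, and the log2 fold change was 4.97 against Col-7 and 2.26 against Col-0 (limma's adjusted p = 9.73e-06 and 0.00221). AT2G18190 read 323, 232 and 268 against 39.9, 22 and 21.9 (log2 fold change 3.34, limma's adjusted p = 0.000207), or 2.36 after adding 32.

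Of the other large rises, that of AT5G60250 also started near background, and the rest started from higher signals. AT4G33720 had signals of 5790, 6146 and 4909 in the mutant and of 837, 846 and 1457 in Col-7 (5.53-fold, limma's adjusted p = 0.000283). Col-0 lay between these groups for this gene, at 2358, 1807 and 2346, and its log2 fold change against Col-0 was 1.38. AT2G34340 (809, 892 and 887 against 139, 152 and 175) and AT1G65370 (948, 1461 and 1280 against 254, 229 and 277) rose 5.57-fold and 4.80-fold (limma's adjusted p = 1.28e-07 and 2.56e-05). AT5G60250 (370, 281 and 367 against 37.5, 32.9 and 28.2) was called with a log2 fold change of 3.37 (limma's adjusted p = 0.0267), or 2.51 after adding 32. That call was lost without Col-7 replicates 2 or 3 or sahy1-1 replicates 1 or 3, with log2 fold changes of 3.37, 3.26, 3.30 and 3.30 and adjusted p-values of 0.0730, 0.0729, 0.0816 and 0.0725.

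**Figure D2:**
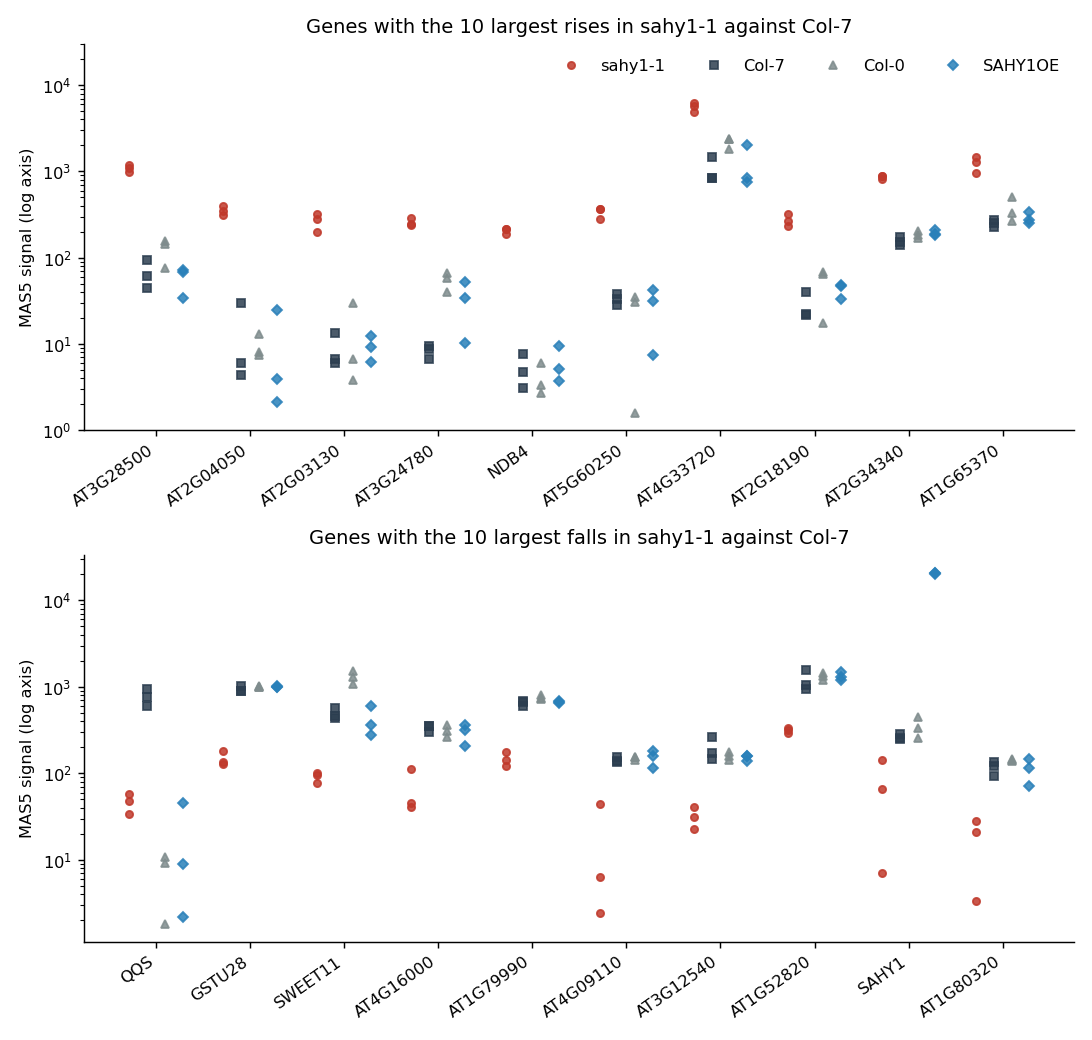
MAS5 signal on a log axis in each of the 12 arrays, with sahy1-1 as red circles, Col-7 as dark squares, Col-0 as grey triangles and SAHY1OE as blue diamonds, for the named genes with the 10 largest rises (top) and the 10 largest falls (bottom) against Col-7, ordered by the difference after adding 32. The mutant arrays stand apart from all other arrays for every gene except QQS, where the Col-7 arrays (596 to 938) stand above the other 9.

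The largest fall belonged to a gene that was high in Col-7 alone. QQS, a gene known only from Arabidopsis thaliana and named for its link to starch, read 58.4, 48.3 and 34.2 in the mutant and 938, 772 and 596 in Col-7 (log2 fold change -4.04, SE 0.84, limma's adjusted p = 0.00747). Col-0 read 1.82, 10.7 and 9.19 and SAHY1OE 2.17, 8.95 and 45.9. The mutant was thus lower than Col-7 but not lower than the other wild type, against which its log2 fold change was 3.02 (limma's adjusted p = 0.0255). Between the wild types the value was 7.07 in favour of Col-7 (limma's adjusted p = 0.000127).

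The other large falls were low in the mutant against all 9 other arrays. GSTU28, a glutathione S-transferase of the tau class, read 179, 135 and 128 in the mutant and 905, 896 and 1028 in Col-7, while Col-0 and SAHY1OE lay between 986 and 1030. It was 6.46-fold lower than in Col-7 (log2 fold change -2.69, SE 0.13, limma's adjusted p = 1.28e-07). SWEET11, a sucrose transporter of the phloem, read 77.0, 96.1 and 101 against 466, 438 and 568. The groups were well apart, but Col-0 was higher still at 1526, 1068 and 1284, so the fall was 5.36-fold against Col-7 and its log2 value was -2.42 against Col-7 and -3.82 against Col-0 (limma's adjusted p = 3.30e-05 and 2.36e-07).

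AT1G79990 read 143, 121 and 179 in the mutant and 669, 595 and 692 in Col-7, and AT1G52820 read 333, 315 and 293 against 950, 1058 and 1583. They were 4.47-fold and 3.73-fold lower (limma's adjusted p = 1.07e-06 and 1.39e-05), and both stayed above background in the mutant. AT4G16000 (41.4, 45.6 and 113 against 354, 351 and 299) and AT3G12540 (31.3, 41.0 and 22.9 against 173, 145 and 263) fell to near background, with log2 fold changes of -2.48 and -2.61, or -1.96 and -1.80 after adding 32. AT4G09110 (6.33, 44.2 and 2.44 against 153, 134 and 137) and AT1G80320 (28.1, 3.31 and 21.3 against 123, 94.0 and 134) showed how much the floor matters. Their log2 fold changes were -4.0 and -3.20 as measured and -1.90 and -1.61 after adding 32 (limma's adjusted p = 0.00231 and 0.00293 on the signals as measured). Single arrays moved them as well, AT4G09110 to -5.17 and -3.08 without sahy1-1 replicates 2 and 3, and AT1G80320 to -2.24 without sahy1-1 replicate 2. AT1G80320 was kept through the Col-0 or SAHY1OE arrays, since neither compared group met the filter.

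Genes of the ribosome were examined in 3 groups. Separate lists of 32 small-subunit and 28 large-subunit ribosomal protein genes had 0 members with a named probe set, so they were not examined. The study had selected 10 genes of ribosome and translation function from arrays of the same mutant against Col-0, so their direction is not independent evidence. Of these, NUC-L2 (AT3G18610), which had the largest fold change of the 10 in the study, had no probe set of its own. The other 9 had one, and all 9 were kept. In the mutant 5 were called higher than in Col-7, against 1.34% of all probe sets, and 4 were not called. The median log2 fold change of the 9 was 1.41, against 0.01 for all probe sets. Beside AT3G28500, the called members were AT2G18720, a translation factor gene that the study lists under EF1A, and AT1G17960, a threonyl-tRNA synthetase gene. The others were AT2G40010 of the ribosomal protein L10 family and AT5G59240 of the ribosomal protein S8e family. AT1G17960 read 409, 506 and 521 against 108, 110 and 97.2 (4.54-fold, limma's adjusted p = 2.49e-06). AT2G40010 read 911, 925 and 974 against 228, 318 and 325 (3.26-fold, limma's adjusted p = 2.07e-05). AT5G59240 read 797, 606 and 689 against 251, 255 and 276 (2.66-fold, limma's adjusted p = 1.85e-05). In these 3 genes the mutant and Col-7 were separated by wide gaps. AT2G18720 started from near background, at 13.4, 29.3 and 5.0, and read 165, 160 and 188 in the mutant (log2 fold change 3.77, limma's adjusted p = 0.00732, and 2.11 after adding 32), and without Col-7 replicates 2 and 3 its value was 4.38 and 3.11.

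The 4 members that were not called differed between the wild types, with Col-7 above Col-0. AT3G49910, annotated as a translation protein of the SH3-like family, had log2 fold changes of -0.00 against Col-7 and 1.01 against Col-0. AT5G44710, a mitochondrial small-subunit gene, had 0.09 and 1.20, and AT5G48760 of the L13 family had 0.23 and 1.44. HLL, a mitochondrial L14 protein needed for ovule growth, had 0.83 and 1.61. The wild types themselves differed by 1.01, 1.11, 1.22 and 0.78 in that order, each at a limma's adjusted p under 0.05, and the mutant's 2 comparisons share its 3 arrays. Of the 4, HLL alone also had an adjusted p under 0.05 against Col-7 (0.00752), with signals of 596, 368 and 469 against 303, 236 and 256.

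Ribosome biogenesis factors, which cut precursor rRNA and assemble the subunits, leaned upward as a group. All 18 measured members had a positive log2 fold change, compared with 51.0% of all probe sets, and their median was 0.42. A single member was called, AT3G15460, which read 542, 546 and 528 in the mutant and 254, 191 and 229 in Col-7 (2.41-fold, limma's adjusted p = 0.000272). At an adjusted p under 0.05 without the fold threshold, 8 of 18 were higher and 0 were lower, against 6.22% and 6.69% of all probe sets. AT3G10530 (419, 585 and 432 against 304, 223 and 247) and AT5G38720 (387, 354 and 391.6 against 231, 197 and 228) had log2 fold changes of 0.89 and 0.79 (limma's adjusted p = 0.00489 and 0.0137). The median of the 18 was 0.38 against Col-0 and -0.05 between the wild types. Of 15 listed genes of proteins isolated together with SAHY1, 4 were measured. All 4 had a positive value between 0.09 and 0.28, none was called (limma), and 0 had an unadjusted p under 0.05, a threshold that 3880 of all 13834 probe sets passed.

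Alternative routes of the mitochondrial electron transport chain let NADH be oxidised without complex I. Beside NDB4, the other gene of this group that was called was NDB2, which read 1827, 1262 and 1756 in the mutant and 773, 742 and 623 in Col-7 (2.25-fold, limma's adjusted p = 0.000476). Both groups of arrays were far above background for NDB2, unlike NDB4. NDB1 and NDC1, of the same enzyme family, had log2 fold changes of -0.17 and -0.02 (limma's adjusted p = 0.500 and 0.956), and the fifth probe set of the group was not kept. A wider list of genes that respond when mitochondrial electron transport is blocked had 11 probe sets, of which 7 were kept. The 2 NDB genes, AT2G04050 and AT2G03130 were called higher, against 1.34% of all probe sets, and none lower. However, NDB4, AT2G04050 and AT2G03130 passed the filter through the mutant arrays alone, so that a count over the kept members favours rises. The other 3 were AT2G41380, AT2G32020 and AT5G43450, with log2 fold changes of 0.18, -0.01 and -0.88 (limma's adjusted p = 0.545, 0.986 and 0.142). Of 3 kept genes of the respiratory chain itself, none was called by limma and none had an unadjusted p under 0.05, and the values lay between 0.01 and 0.24.

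Root hair genes were lower in the mutant. Root hairs are tubular outgrowths of epidermal cells that take up water and minerals, and their growth needs wall-loosening and wall-building proteins. Of 20 genes on the list 6 were measured. All 6 were kept, 4 were called lower, against 1.02% of all probe sets, and none higher. The median log2 fold change of the 6 was -1.10. EXPA7, an expansin of root hair cells, read 289, 417 and 288 in the mutant and 619, 813 and 766 in Col-7 (2.23-fold lower, limma's adjusted p = 0.000568). EXPA18, a close relative with the same site of expression, read 291, 329 and 305 against 692, 565 and 759 (2.17-fold lower, limma's adjusted p = 0.000432). For both genes the Col-0 and SAHY1OE arrays read 560 to 770, so the mutant stood below all 9 other arrays.

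AT3G18450 and AT1G34510 were the other called members of the root hair list. The latter was kept through the Col-0 or SAHY1OE arrays, since neither compared group met the filter. AT3G18450 read 107, 173 and 174 against 294, 310 and 339 (log2 fold change -1.09, limma's adjusted p = 0.00159), and without sahy1-1 replicate 1 it was -0.86 and under 2-fold. AT1G34510 read 6.76, 41.3 and 25.2 against 127, 73.5 and 93.8, a log2 fold change of -2.32 that was -1.23 after adding 32 (limma's adjusted p = 0.00885 on the signals as measured) and -1.57 without sahy1-1 replicate 1. HRGP1, a hydroxyproline-rich glycoprotein of the cell wall, and AT1G30870 fell by less than 2-fold, with log2 fold changes of -0.80 and -0.68 (limma's adjusted p = 0.000841 and 0.00891). All 6 had an adjusted p under 0.05 in the same direction, against 6.69% of all probe sets, and all 6 were separated between the groups, against 15.0%. Since the list was chosen with earlier results of these data known, these shares are no independent support. The median of the 6 was -0.97 against Col-0 and -0.05 between the wild types. In the opposite direction, AT4G11290, which is on the marker list of roots and not on that of root hairs, read 2875, 2897 and 2612 against 1643, 1257 and 1445 (1.94-fold, limma's adjusted p = 0.00121).

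Several further called genes of the epidermis, cell wall and transcription were picked out after their values were seen. AT5G19800, annotated as the hydroxyproline-rich glycoprotein HRGP2, read 68.4, 37.2 and 42.8 against 169, 144 and 198 (3.53-fold lower, limma's adjusted p = 0.000387). ATMYC1, a bHLH transcription factor of epidermal cell patterning, read 111, 182 and 131 against 255, 309 and 270, at the very edge of the fold threshold (2.0-fold lower, limma's adjusted p = 0.00260), and its value was -0.92, -0.84 and -0.96 without Col-7 replicate 2, sahy1-1 replicate 1 and sahy1-1 replicate 3. AGL42, a MADS-box transcription factor, read 262, 353 and 308 against 821, 775 and 535 (2.29-fold lower, limma's adjusted p = 0.000568). SP1L4, a SPIRAL1-like gene of a family that acts on cortical microtubules, was 2.19-fold lower (231, 222 and 253 against 563, 528 and 461, limma's adjusted p = 0.000831).

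Of 12 expansins kept, which loosen the wall during growth, EXPA7 and EXPA18 were called lower, against 1.02% of all probe sets, and none higher, while 8 had a positive value against 51.0% of all. EXPA4 was abundant and read 6593, 6491 and 6225 in the mutant and 3805, 4048 and 3061 in Col-7 (1.78-fold, limma's adjusted p = 0.00284). EXLA3 had the largest positive value, 1.17, without overlap between the groups but with a wide spread and no call (289, 217 and 383 against 189, 199 and 55.8, limma's adjusted p = 0.207). Of 8 kept xyloglucan endotransglucosylases, enzymes that cut and rejoin xyloglucan chains, none was called by limma. The median was 0.56, and 7 members were above 0, against 51.0% of all probe sets. At an adjusted p under 0.05, 5 were higher, against 6.22% of all probe sets. XTH20 read 723, 929 and 788 against 440, 518 and 332 and XTH19 read 1637, 1492 and 1350 against 1005, 618 and 1005 (1.91-fold and 1.74-fold, limma's adjusted p = 0.0110 and 0.0332). XTH20 was equally high in Col-0, at 853, 1008 and 800, and the median of the 8 was 0.37 against Col-0 and -0.31 between the wild types. Both directions were seen among pectin methylesterase genes, also picked out after their values were seen. ATPMEPCRB, annotated as pectin methylesterase 41, was higher (266, 285 and 254 against 93.9, 47.1 and 48.5, 4.47-fold, limma's adjusted p = 0.00324), and ATPMEPCRD was lower (183, 250 and 202 against 357, 584 and 439, 2.14-fold, limma's adjusted p = 0.00304), the latter by 0.91 on the log2 scale without Col-7 replicate 2.

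**Figure D3:**
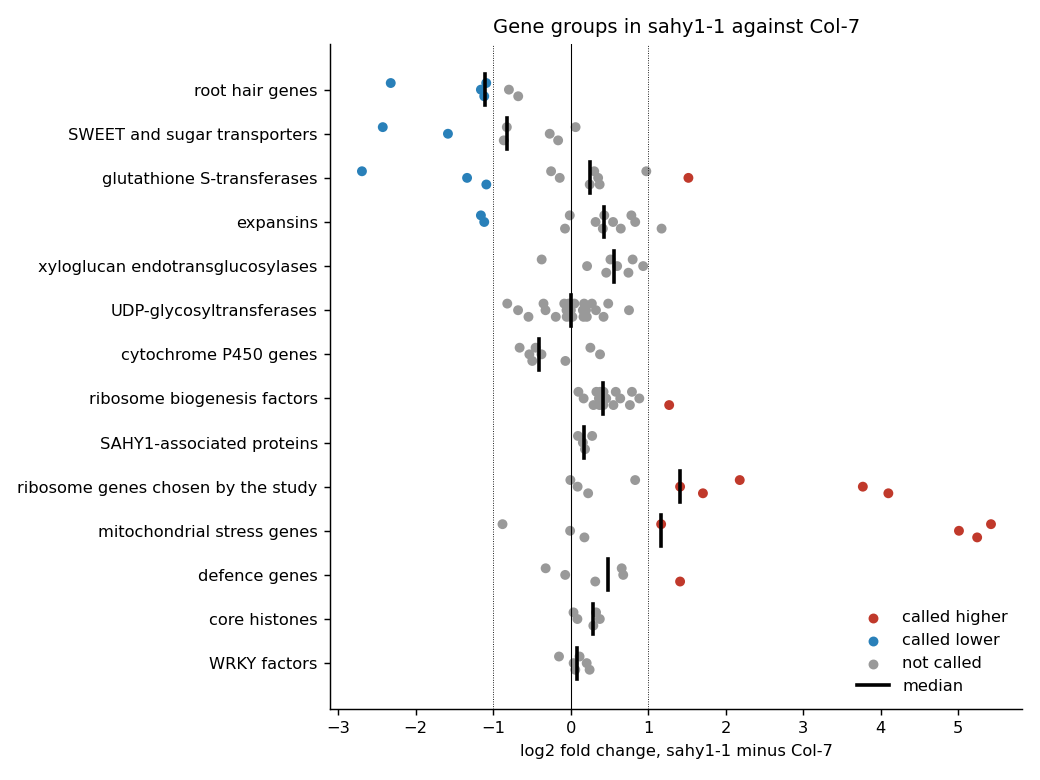
Log2 fold change of sahy1-1 minus Col-7 for each kept member of 14 gene groups, 1 point per probe set, red for called higher, blue for called lower and grey for not called, with a black bar at the group's median and dotted lines at 2-fold. Root hair genes all lie below 0 (median -1.10), ribosome biogenesis factors all lie above 0 (median 0.42), and glutathione S-transferases lie on both sides.

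SWEET proteins carry sugars across membranes down their gradient. Of 19 probe sets of SWEET and other sugar transporter genes, 7 were kept. Of these, SWEET11 and SWEET3 were called lower, against 1.02% of all probe sets, none was called higher, 1 had a positive value, and the median was -0.82. SWEET3 read 34, 49.2 and 36.4 in the mutant and 140, 124 and 94.7 in Col-7 (3.0-fold lower, limma's adjusted p = 0.00794, and 2.10-fold after adding 32). Neither compared group met the filter for SWEET3, which was kept through the Col-0 or SAHY1OE arrays. SWEET16, a transporter of the vacuolar membrane, and SWEET2, another vacuolar member known from roots, fell by less than 2-fold (371, 545 and 489 against 1020, 815 and 714, and 734, 642 and 746 against 1118, 1524 and 1143). Their log2 fold changes were -0.86 and -0.82 (limma's adjusted p = 0.0158 and 0.00695), and in both the groups did not overlap. SWEET11 is also the single kept gene of the phloem marker list, whose summed signal was 105 to 143 in the mutant, 478 to 616 in Col-7 and 1074 to 1560 in Col-0, and the part of phloem content in this result was not tested.

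Glutathione S-transferases, which couple glutathione to reactive or toxic compounds, moved in both directions. Of 14 probe sets 11 were kept, and of these 1 was called higher and 3 were called lower, against 1.34% and 1.02% of all probe sets. GSTU25 read 3773, 3142 and 3286 in the mutant and 1279, 1256 and 1030 in Col-7 (2.87-fold, limma's adjusted p = 1.08e-05). GSTU26, its neighbour in gene order on chromosome 1, read 939, 1485 and 1064 against 2307, 2463 and 2505 (2.12-fold lower, limma's adjusted p = 0.000687), and without sahy1-1 replicate 1 its value was -0.95. These adjacent genes of the same tau class therefore moved in opposite directions. ATGSTF13, of the phi class, read 211, 142 and 237 against 449, 428 and 593 (2.52-fold lower, limma's adjusted p = 0.000859). Together with GSTU28 these are all 4 called members. GSTU20 was just under 2-fold (1211, 1001 and 863 against 628, 510 and 430, 1.97-fold, limma's adjusted p = 0.00431). GSTU23 had a log2 fold change of 0.37 (limma's adjusted p = 0.323).

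Of 26 UDP-glycosyltransferases kept, enzymes that add a sugar to small molecules, none passed 2-fold. At an adjusted p under 0.05 by limma, 2 were higher and 2 were lower, close to the 6.22% and 6.69% of all probe sets. The widest apart were UGT73B1, which read 856, 982 and 817 against 1484, 1659 and 1529 (1.76-fold lower, limma's adjusted p = 0.00147), and UGT73B4, which read 1027, 808 and 710 against 404, 610 and 500 (1.69-fold higher, limma's adjusted p = 0.0217). Of 8 cytochrome P450 genes kept, 6 were below 0 with a median of -0.41, and none was called by limma. CYP71B23 (log2 fold change -0.66, limma's adjusted p = 0.00402) was the single one with an adjusted p under 0.05, against 6.69% of all probe sets lower. At an unadjusted p under 0.05, 3 glycosyltransferases were higher and 4 lower, and 4 P450 genes were lower, while 3880 of all 13834 probe sets passed that threshold.

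Of 6 defence genes kept, 1 was called higher, against 1.34% of all probe sets. PR-1-LIKE, a relative of the pathogenesis-related protein PR-1, read 721, 623 and 508 in the mutant and 231, 213 and 247 in Col-7 (2.66-fold, limma's adjusted p = 0.000255). Of these 6, the defensin PDF1.4 was also higher at an adjusted p under 0.05 but under 2-fold (0.66 on the log2 scale, limma's adjusted p = 0.0256), and PDF2.1 had 0.68 (limma's adjusted p = 0.0869). Among 3 iron deficiency genes kept, AT3G61930 was called higher (326, 264 and 253 against 172, 116 and 112, 2.13-fold, limma's adjusted p = 0.00480), with values of 0.98 without Col-7 replicate 3 and 0.98 without sahy1-1 replicate 1. Among kept members, none was called of 6 WRKY factors, 6 genes of abscisic acid and water stress, 5 class III peroxidases, 5 core histones, 5 auxin response genes, 6 nitrate and peptide transporters, 4 hypoxia genes, 4 phenylpropanoid genes and 3 DNA replication genes, and their medians lay between -0.27 and 0.29. By limma at an unadjusted p under 0.05, 0 WRKY factors, 1 water stress gene, 2 peroxidases, 1 histone, 0 auxin genes, 3 transporters, 1 hypoxia gene, 1 phenylpropanoid gene and 0 replication genes passed, again beside 3880 of 13834 probe sets.

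More genes with known names were called outside these lists, and they are given here as chosen after their values were seen. BCAT4, the aminotransferase that starts the lengthening of methionine side chains for glucosinolates, read 2523, 2405 and 2934 against 1333, 941 and 1024 (2.40-fold, limma's adjusted p = 0.00192). MCCA, a subunit of the carboxylase of leucine breakdown, read 1283, 1609 and 1555 against 2628, 3374 and 3154 (2.06-fold lower, limma's adjusted p = 0.00152), and its value was -0.96 without Col-7 replicate 2 and -0.94 without sahy1-1 replicate 1. These are both enzymes of amino acid metabolism, and they moved in opposite directions.

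Calcium sensors of the calmodulin-like family also split. CML23 was higher (230, 208 and 320 against 84.4, 144 and 102, 2.31-fold, limma's adjusted p = 0.00350), and CML43 was lower (324, 466 and 356 against 630, 918 and 910, 2.14-fold, limma's adjusted p = 0.00113). For CML43 the mutant was above Col-0, which read 259, 243 and 259, and the value was -0.99 without sahy1-1 replicate 1. ROXY2, a glutaredoxin, TBL21, of a family that adds acetyl groups to wall polysaccharides, and SIS, a salt-induced serine-rich protein, were lower by 2.22-fold, 2.17-fold and 2.17-fold (limma's adjusted p = 0.000515, 0.00152 and 0.00118). HIS1-3, a linker histone induced by drought, read 134, 322 and 278 against 475, 461 and 482 (2.06-fold lower, limma's adjusted p = 0.0122), with -0.66 without sahy1-1 replicate 1. ATC, a relative of the floral repressor TFL1, was higher by 2.10-fold (659, 535 and 485 against 307, 332 and 181, limma's adjusted p = 0.00923), but Col-0 read 620, 418 and 467, and the value was 0.80 and 0.95 without Col-7 replicate 3 and sahy1-1 replicate 1.

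Markers of other tissues bear on whether the roots were alike in makeup. The 4 measured genes of photosynthetic tissue, 1 for Rubisco activase, 2 for light-harvesting antenna proteins and 1 for photosystem II, were not called (limma), with summed signals of 3618 to 4227 in the mutant and 3675 to 4112 in Col-7. The 2 seed markers summed to 10.7 to 54.5 in the mutant and 9.18 to 34.5 in Col-7, near background, and the 5 pollen markers to 214 to 284 and 212 to 246. The root marker list, with 3 genes, summed to 3205 to 3643 in the mutant and 2635 to 2969 in Col-7, and the single meristem marker to 534 to 653 and 452 to 593. Within this root list AT4G11290 was higher while both root hair expansins were called lower.

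The calls were also counted by chromosome. Among genes that were kept and paired with a probe set, 27 of 1083 on chromosome 2 were called higher in the mutant (2.49%) and 9 lower (0.831%), against 95 and 75 of 7340 in the whole genome (1.29% and 1.02%). The lowest share of higher calls was on chromosome 5, 12 of 1763 (0.681%). Of the 10 genes with the largest rises, 5 lie on chromosome 2, the chromosome of SAHY1, namely AT2G04050, AT2G03130, NDB4, AT2G18190 and AT2G34340, against 1 of the 10 largest falls, SAHY1 itself. Along chromosome 2, split into 4 equal runs of genes, the higher calls numbered 11, 4, 6 and 6 and the lower calls 5, 1, 0 and 3, beginning at the end where SAHY1 lies. Against Col-0, 19 genes of chromosome 2 were higher (1.75%, against 2.29% of all genes), and between the wild types 1 gene of chromosome 2 was higher in Col-7 (0.0923%, against 1.46% of all genes) and 3 were lower (0.277%, against 0.559%). On chromosomes 1, 3 and 5 the shares with Col-7 above Col-0 were 1.73%, 2.13% and 1.99%. Chromosome 4 was also below the share of all genes, at 0.551%, and its share higher in the mutant than in Col-0 was 1.1%. A low share in these 2 comparisons was thus not particular to chromosome 2. These comparisons share arrays, and the spread over chromosomes was not tested.

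**Figure D4:**
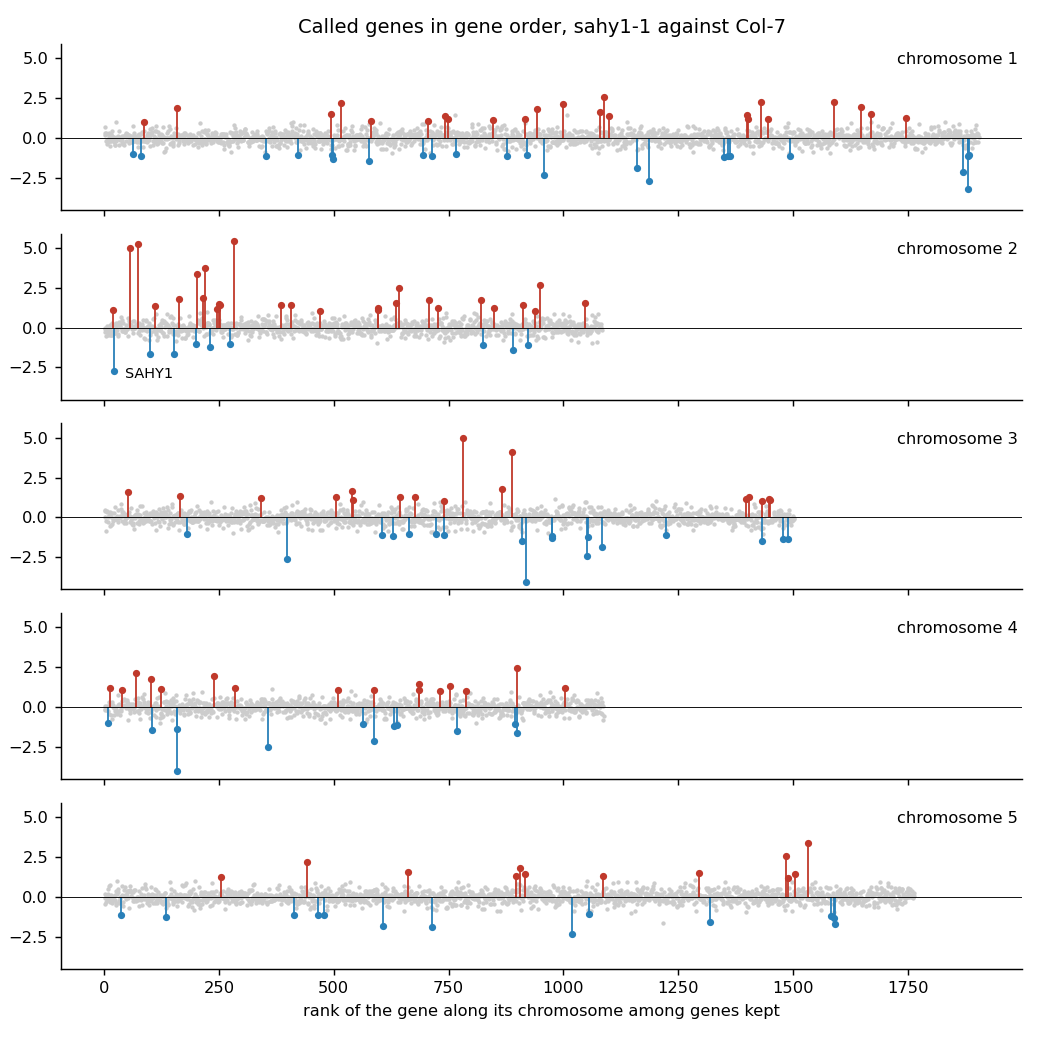
Log2 fold change of sahy1-1 minus Col-7 for the 7340 genes kept, in gene order along each of the 5 chromosomes (horizontal axis, rank of the gene among those kept), with called genes as red (higher) or blue (lower) stems and the others in grey. Chromosome 2 carries 27 of the 95 higher calls, 11 of them among the first 271 of its genes, where SAHY1 also lies.

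Of the 10 kept genes before SAHY1 and the 10 after it in gene order, 1 was called, against 2.32% of all kept genes. AT2G01610 was called higher, with signals of 1198, 916 and 1061 in the mutant and 548, 547 and 391.7 in Col-7 (2.15-fold, limma's adjusted p = 0.00747), and without Col-7 replicate 3 its value was 0.94. In the whole genome 5 pairs of called genes were directly next to each other. How many such pairs would arise among called genes in any order was not tested. Of these, 3 moved together, AT3G45700 with AT3G45710, AT4G09100 with AT4G09110 (all 4 lower) and AT4G27652 with AT4G27654 (both higher), and 2 moved apart, GSTU25 with GSTU26 and AT4G33720 with AT4G33730. AT4G33730 read 121, 121 and 119 in the mutant and 381, 347 and 371 in Col-7 (3.05-fold lower, limma's adjusted p = 2.56e-05), beside the 5.53-fold rise of its neighbour. The calls of AT4G27652, AT4G27654 and AT3G45710 were each lost without some single arrays. AT4G27652 had an adjusted p of 0.0837, 0.0505 and 0.0700 without Col-7 replicate 3, sahy1-1 replicate 2 and sahy1-1 replicate 3, where its log2 fold changes were 0.77, 1.03 and 1.01. AT4G27654 had values of 1.56, 1.01, 1.46 and 1.24 (adjusted p = 0.0660, 0.126, 0.0883 and 0.118) without Col-7 replicates 2 and 3 and sahy1-1 replicates 1 and 3. AT3G45710 had values of -1.27, -1.15 and -1.18 (adjusted p = 0.0523, 0.0679 and 0.0609) without Col-7 replicate 2 and sahy1-1 replicates 1 and 3. Neighbouring genes of high similarity can share signal on short probes, which was not tested.

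Some of the clearest differences lay in probe sets that the table pairs with no gene. One such probe set read 191, 175 and 317 in the mutant and 1425, 1387 and 1431 in Col-7 (log2 fold change -2.69, limma's adjusted p = 2.02e-06). Another, of higher signal, read 917, 1092 and 873 against 4061, 4511 and 4420 (-2.18, limma's adjusted p = 2.82e-07). Both were also low against Col-0 and SAHY1OE, where the lowest signals were 1322 and 3715. Upward, a probe set near background in Col-7 read 376, 425 and 415 against 42.8, 6.97 and 10.0 (log2 fold change 4.81, 3.14 after adding 32), and a similar one read 486, 651 and 737 against 35.4, 57.9 and 66.9 (3.58, 2.94 after adding 32; limma's adjusted p = 0.000207 and 0.00752). These 4 were picked for the largest differences after adding 32, among called probe sets without a gene whose groups did not overlap. In each the mutant arrays lay outside the range of the other 9. Of all probe sets, 7.36% lay above and 7.11% below that range. Given how the 4 were picked, this is no independent support.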

How the data were processed

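The values are MAS5 signal intensities of Affymetrix ATH1 arrays as deposited by the authors, on a linear scale with a trimmed mean of 500 per array (2% left out at each end). Each array was made from 10 µg of root RNA. The deposited series text names GeneSpring GX 10.0.1, and no version of MAS5 or genome build is given in the sources used here. With 3 arrays in each group, precision is limited by their number.

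Signals under 1 were set to 1 (46 to 333 values per array) and log2 was taken. R 4.3.3 with limma 3.58.1 (lmFit and eBayes) estimated the mean of each group from all 12 arrays, which pools the spread of the 4 groups. The study's methods used a t-test on the means, which was run as an alternative. Names were given only to probe sets that GEO's platform annotation links to a single gene, 13513 of 22746 probe sets (59.4%), and many well-known genes are not named in it. Gene names and gene order come from RefSeq (TAIR10.1).

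The named genes are the 10 largest rises and falls after adding 32 among called genes without overlap between the groups, the called members of each list with the smallest p-values and the members not called with the largest differences. Of 56 lists, those with at least 3 measured members are described, 26 in all. The members and lists were chosen with earlier results of these data known, and wrong matches were removed from the lists after the data were seen. Counts within the lists, set beside the shares of all probe sets, are therefore descriptions and no independent support. On simulated sahy1-1 and Col-7 data over 13834 probe sets, the fit gave back 39 of 40 changes of 2.5-fold and 40 of 40 of 3-fold, with 1 false call. Of 40 changes of 1.5-fold, which lie under the 2-fold threshold, 0 were called. The changes were placed only in probe sets with a mean signal well above background, and the noise was independent and normal. The recovery therefore does not cover genes near background. Alternatives were other normalizations, offsets, filters, fits and the leaving out of each array. Promoter sequences, raw images and RT-qPCR were not analysed here. Tables were handled in pandas 2.3.3 (Python 3.11.15), and matplotlib 3.10.9 made the plots.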

Additional observations from a re-analysis of the deposited data

How the results depend on the processing

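The count of 327 calls was 179 with a filter at the 60th percentile, 46 with the methods' t-test (27 higher and 19 lower), 1786 at an adjusted p under 0.05 without a fold threshold, and 292 to 384 when each array was left out. Other settings kept it within 1.5 times. The SAHY1 call was lost with no filter (-2.72, adjusted p = 0.131), in a fit to 6 arrays (adjusted p = 0.0607), with the methods' t-test (adjusted p = 0.328) and with array weights (-1.93, adjusted p = 0.0751), and its value ranged from -3.63 to -1.45 without each array. Group medians moved in the following cases, and all but that of expansins lay at or beyond the ends of their range without each array. With the filter at the 60th percentile, root hair genes moved to -0.96, expansins to 0.32 and glutathione S-transferases to 0.053. The ribosome genes chosen by the study moved to 1.12 with it. The sugar transporters moved to -0.55 with that filter or one on the 6 arrays alone. Mitochondrial stress genes moved to 3.09 with the latter and to 0.67 with the former, against 1.17. After adding 32, the chosen ribosome genes moved to 1.31, at the edge of their range. Without each array, the medians ranged from 0.37 to 0.53 for ribosome biogenesis factors, from 0.27 to 0.59 for expansins, from 0.085 to 0.26 for glutathione S-transferases and from 1.31 to 1.51 for the chosen ribosome genes. Of 57 called genes named in these tests besides SAHY1, 48 kept the call after adding 32, 46 with no filter, 35 with the filter at the 60th percentile, 17 with the methods' t-test, 54 with array weights and 57 with quantile normalization or median centring. AT2G18720, QQS, SWEET3 and AT1G34510 lost it with no filter (adjusted p = 0.0639, 0.0642, 0.0629 and 0.0694). No value of a called gene changed sign. The replicate numbers did not pair the arrays (correlations of deviations 0.09, -0.10 and -0.09), and the replicate block gave 330 calls and kept all 57. Signals near background limit the size of the largest folds.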
